A study of Mus musculus with 12 samples.

Results

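The collagen genes were examined in HT22 cells, an immortalized mouse hippocampal neuronal line, after NCOA4 knockdown, iron chelation or both. They were taken by symbol, Col followed by a type number, the letter a and a chain number, which gave 44 of the 24343 genes measured. Of these, 23 reached 0.5 FPKM (fragments per kilobase and library size, a level corrected for transcript length and sequencing depth) in at least 3 of the 12 libraries. The 23 comprised 9 of 11 fibrillar genes, 4 of 6 basement membrane genes and 10 of 27 genes of other collagen types.

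RNA-seq was performed on 12 libraries, with n = 3 biological replicates in each of 4 groups. siControl cells received control siRNA and siNCOA4 cells received siRNA against Ncoa4, which encodes the receptor that delivers ferritin to autophagy for the release of its iron. siControl+DFO and siNCOA4+DFO cells received the same siRNAs and the iron chelator deferoxamine (DFO) at 100 µM for 24 h. The 4 groups shared the line, the liposome-mediated transfection and the serum-containing medium, and every result rests on 1 cell line. The paper reports that viability was reduced when knockdown and DFO were combined, and not by either alone. All knockdowns used 1 Ncoa4 siRNA, so effects of that siRNA beyond its target cannot be told apart.

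Collagens are secreted proteins whose alpha chains wind into a triple helix. Fibrillar types build the banded fibers that give tissue its tensile strength, type IV forms the sheet-like network of basement membranes, and the remaining types form beaded filaments, sit on the surface of fibers or span membranes. Prolyl and lysyl hydroxylases modify the chains inside the cell and depend on iron and oxygen, while lysyl oxidases, which depend on copper, cross-link the secreted molecules. In the brain, basement membrane collagens are known chiefly from blood vessels, and fibrillar collagens from the meninges and perivascular cells.

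The siRNA target was lower in every library with siNCOA4. Ncoa4 stood at 6.46, 6.19 and 6.02 FPKM in siControl, 0.77, 0.952 and 0.891 in siNCOA4, 8.7, 8.31 and 7.52 in siControl+DFO and 0.85, 1.29 and 1.57 in siNCOA4+DFO, a log2 change of -2.71 with siNCOA4 (limma, adjusted p = 1.25e-05). The labelled cell type was not borne out by neuronal markers: 8 of 10 (among them Map2, Dcx and Snap25) stayed below 0.5 FPKM in every library, and the sum of the 10 lay between 4.66 and 13.6 FPKM, mostly from Tubb3. Mesenchymal markers were uneven. In siControl, Vim stood at 1599.8 ± 58.3 FPKM and S100a4 at 2239.6 ± 539.8 FPKM (mean ± SD, n = 3). The siControl means of Prrx1, Pdgfrb, Pdgfra, Twist1, Thy1 and Dcn lay between 7.9 and 44.4 FPKM, and that of Acta2 was 2.06. Lum stayed below 0.5 FPKM in every library, Tagln was listed at 0 in siControl, and Fap was listed at 0 in all libraries. Summed glial markers lay between 1.1 and 4.04 FPKM, endothelial markers between 0 and 1.76, and immune markers between 3.37 and 14.2.

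Depth was estimated for each library. FPKM holds no read count, but the steps between the lowest values of 5251 genes gave relative depths that spanned 1.52-fold from the shallowest to the deepest library. Genes above 0 numbered 12643 to 13120 in libraries without DFO and 13454 to 14024 in libraries with DFO. The FPKM of all genes summed to 565558 to 627826 without DFO and 676428 to 737313 with DFO. The part of this difference in the rises of collagen genes near 0 was not tested.

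Before the levels, the sequence ahead of 4 of the genes is shown because their transcripts behaved differently under the treatments: Col3a1, a fibrillar gene that fell with DFO, Col5a1, which fell less, and the neighbors Col4a5 and Col4a6, whose starts on chromosome X lie 1309 bases apart in opposite directions and whose levels parted with siNCOA4. Each line gives 150 bases ahead of the first annotated exon, read in the direction of the gene from build GRCm38.p6. Col3a1 lies on the plus strand (chr1:45311388-45311537), as do Col5a1 (chr2:27886275-27886424) and Col4a5 (chrX:141475235-141475384), and Col4a6 lies on the minus strand (chrX:141474077-141474226). Capitals mark a match on either strand to 1 of 4 motifs. The first, TATAAA, is known as a core promoter element that positions transcription. The next, GGGCGG, is known as the GC box that Sp1 binds. The others were CCAAT, to which the factor NF-Y is known to bind, and ACGTG, a form of the core of the site for hypoxia-inducible factors. Other forms of that core were not searched.
Col3a1: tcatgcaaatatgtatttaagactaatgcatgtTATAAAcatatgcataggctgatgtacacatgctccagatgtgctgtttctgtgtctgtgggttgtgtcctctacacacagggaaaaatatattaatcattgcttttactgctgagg
Col5a1: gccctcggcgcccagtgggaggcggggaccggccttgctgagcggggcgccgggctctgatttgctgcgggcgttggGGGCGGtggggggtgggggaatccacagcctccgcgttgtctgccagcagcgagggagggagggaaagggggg
Col4a5: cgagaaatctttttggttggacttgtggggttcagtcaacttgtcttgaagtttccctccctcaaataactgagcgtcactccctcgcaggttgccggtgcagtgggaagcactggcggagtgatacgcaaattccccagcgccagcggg
Col4a6: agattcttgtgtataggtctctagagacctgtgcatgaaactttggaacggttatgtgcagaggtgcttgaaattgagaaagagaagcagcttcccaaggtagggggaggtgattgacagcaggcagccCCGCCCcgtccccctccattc
The stretch ahead of Col3a1 held TATAAA that begins 117 bases before the exon, that of Col5a1 a GC box at 73 bases, that of Col4a6 a GC box at 21 bases on the opposite strand, and that of Col4a5 no match to these letters, although its longer RefSeq window held a GC box and the NF-Y motif. RefSeq promoter windows, from 250 bases before to 50 bases after the annotated start, were at hand for 19 of the 23 genes. A GC box stood in at least 1 window of 14 of the 19 genes, and in 35.7% of 32851 windows of all genes. The NF-Y motif did so for 9 genes, and in 37.4% of windows. The core promoter element was found for 3 genes (Col3a1, Col11a2 and Col17a1), and in 13.6% of windows. ACGTG was found for 3 (Col1a2, Col5a1 and Col11a2), and in 19.6% of windows. Members were counted by gene and the background by window. A gene with several windows has more chances of a match, so the shares are not directly comparable. These matches describe letters and were not tested as binding sites.

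HT22 cells in the control state carried a large amount of collagen transcript, and it was lower after each treatment. The FPKM of the 44 genes summed to 2253 ± 195 in siControl, 1573 ± 174 in siNCOA4, 812 ± 105 in siControl+DFO and 951 ± 82.4 in siNCOA4+DFO (mean ± SD, n = 3). Every siControl library exceeded every siNCOA4 library, and both stood above all 6 libraries with DFO. Col1a2, Col1a1 and Col3a1 together made up 74.3 ± 0.657% of the sum in siControl, 65.3 ± 0.691% in siNCOA4, 57.7 ± 1.12% in siControl+DFO and 55.2 ± 2.15% in siNCOA4+DFO.

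The sum over fibrillar genes ran from 1665 to 1989 FPKM in siControl, 1075 to 1344 in siNCOA4, 469 to 610.4 in siControl+DFO and 587 to 724 in siNCOA4+DFO. For basement membrane genes it ran from 177 to 203, 149 to 180.4, 107 to 129 and 154 to 167 in the same order. On the basement membrane sum, siControl+DFO lay below all 9 other libraries, while siNCOA4 overlapped siControl and siNCOA4+DFO. Other collagen types summed to 247 to 277, 188 to 234, 117 to 148 and 124 to 143 FPKM, with the DFO groups overlapping each other and lying below the rest. These sums were described and not tested.

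**Figure D1:**
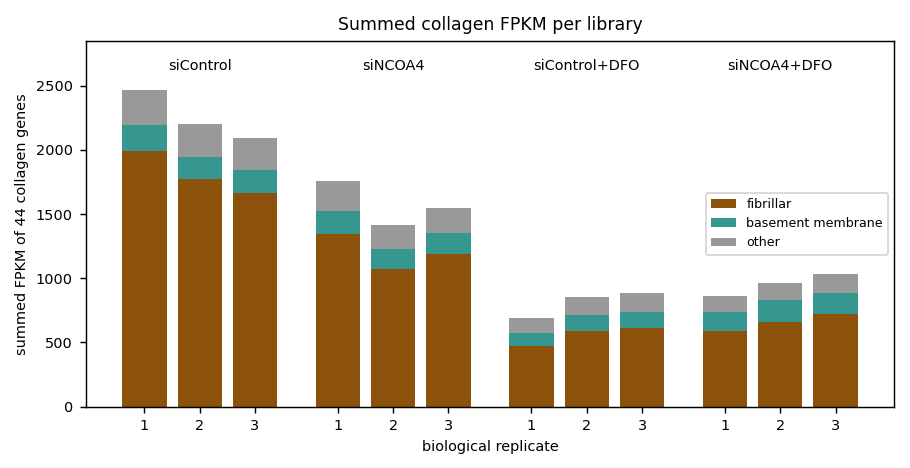
Summed FPKM of the 44 collagen genes in each library (vertical axis), with 1 bar per biological replicate and colors for fibrillar, basement membrane and other types. The siControl bars reach 2089 to 2469 FPKM and the siControl+DFO bars 692 to 888, and the fibrillar segment carries most of the difference.

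Changes were computed as differences of log2(FPKM + 0.1), a scale that understates the change of genes with low FPKM, and tested with limma over all 11924 genes that passed the FPKM filter, with Benjamini-Hochberg adjustment within each comparison. A gene is said to have risen or fallen where the adjusted p was below 0.05. With siControl+DFO against siControl, 5 of the 23 genes rose and 11 fell, where 27.7% and 25.7% of all genes tested did so. Their median log2 change was -0.27, beside -0.011 over all genes tested. A fold change above 2 was reached by 11 of the 23, where 18.8% of all genes did. Col2a1, Col11a2, Col9a3 and Col20a1 stand among both the 5 and the 11. They were kept by the filter through higher libraries, so no support is drawn from these counts of rises and 2-fold changes.

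With siNCOA4 against siControl, 3 collagen genes rose and 5 fell, beside 4.52% and 7.21% of all genes. The median log2 change was -0.13 for the 23 genes and 0.0048 for all genes tested, and 2 of the 23 changed by more than 2-fold, where 1.78% of all genes did. These were Col11a2 and Col20a1, with siControl means below 0.5 FPKM. The filter kept them through higher libraries, so no support is drawn from their number. With siNCOA4+DFO against siControl, 7 rose and 9 fell (background 25.4% and 23.4%), 11 by more than 2-fold (background 15.2%), with medians of -0.16 and 0.01. All that rose except Col5a2 were likewise kept by the filter through their higher libraries. They also stand among the 11, so no support is drawn from these counts of rises and 2-fold changes. These 3 comparisons share the siControl libraries, so a low or high siControl value enters each of them.

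All 11 genes that fell with DFO were abundant enough to be read in every library. Of the 23 genes, 17 were at 0.5 FPKM or more in all 12 libraries, and among these DFO alone raised Col8a1 and lowered 11. The other 6 (Col2a1, Col5a3, Col11a2, Col9a3, Col20a1 and Col17a1) had libraries below 0.5 FPKM, so the filter kept them because some libraries were higher. The 4 among them that rose with DFO are described below without support drawn from their number. The same holds for all 6 in siNCOA4+DFO against siControl. Col27a1, Col4a1, Col4a2, Col18a1 and Col7a1 passed the test in none of 5 comparisons between groups, and none had an unadjusted p below 0.05 there.

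The summed level of mesenchymal markers, carried mostly by S100a4 and Vim, was lower with DFO. The 12 genes, 2 of which (Dcn and Lum) also stand on the fibril-associated list, summed to 3418 to 4289.9 FPKM in siControl, 3458 to 4029 in siNCOA4, 2288 to 2438 in siControl+DFO and 2117 to 2529.8 in siNCOA4+DFO. S100a4 went from 2239.6 ± 539.8 FPKM in siControl to 893.9 ± 31.5 in siControl+DFO (SD, n = 3). Vim went from 1599.8 ± 58.3 to 1412 ± 50.3. With DFO 8 of 10 tested fell and 1 rose (Tagln), beside 25.7% and 27.7% of all genes. Tagln passed the filter only through its siControl+DFO libraries, so no support is drawn from its rise. With siNCOA4 1 fell (Pdgfrb) and by limma 0 rose, also at an unadjusted p below 0.05. Pdgfrb and Pdgfra, receptors for platelet-derived growth factor, gave log2 changes with DFO of -3.03 ± 0.19 (adjusted p = 1.10e-07) and -2.37 ± 0.30 (adjusted p = 3.53e-05), while Vim gave -0.18 ± 0.10 (adjusted p = 0.131). Among other cell-type markers, the immune sum was 11.4 to 14.2 FPKM in siControl, mostly from Tmem119, and 3.37 to 3.8 in siControl+DFO, where Cd68 had the highest mean of the list's tested genes. Tek, an endothelial receptor, was listed at 0 in siControl and siNCOA4 and stood at 0.827 ± 0.282 FPKM in siControl+DFO and 0.962 ± 0.144 in siNCOA4+DFO (SD, n = 3). Tek too passed the filter only through its libraries with DFO. Aldh1l1, an astrocyte enzyme, had means of 0.324 ± 0.0356 FPKM in siControl, 0.811 ± 0.0347 in siNCOA4, 0.678 ± 0.153 in siControl+DFO and 2.5 ± 0.164 in siNCOA4+DFO. The part of these markers in the collagen values was not tested, and in bulk RNA fewer cells of a type and less RNA per cell cannot be told apart.

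**Figure D2:**
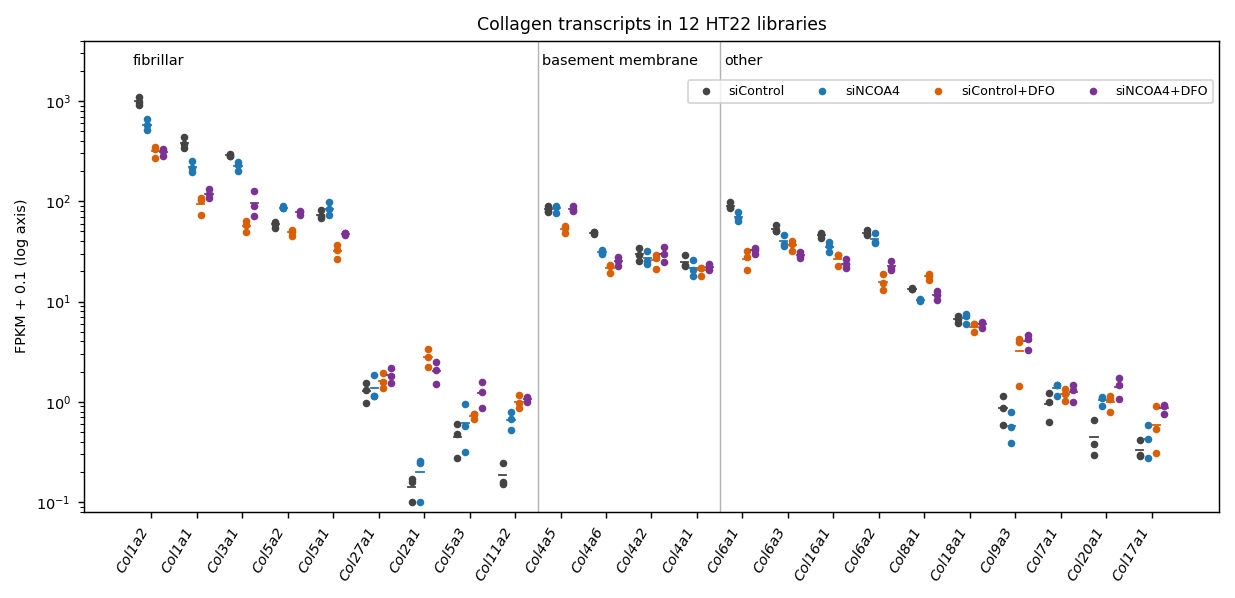
FPKM + 0.1 on a log axis for the 23 collagen genes in each of the 12 libraries, colored by group, with a short bar at each group mean. Col1a2 ranges from 268 to 1107 FPKM, and Col2a1 lies at or near 0 in siControl and at 2.7, 3.28 and 2.15 FPKM in siControl+DFO.

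**Figure D3:**
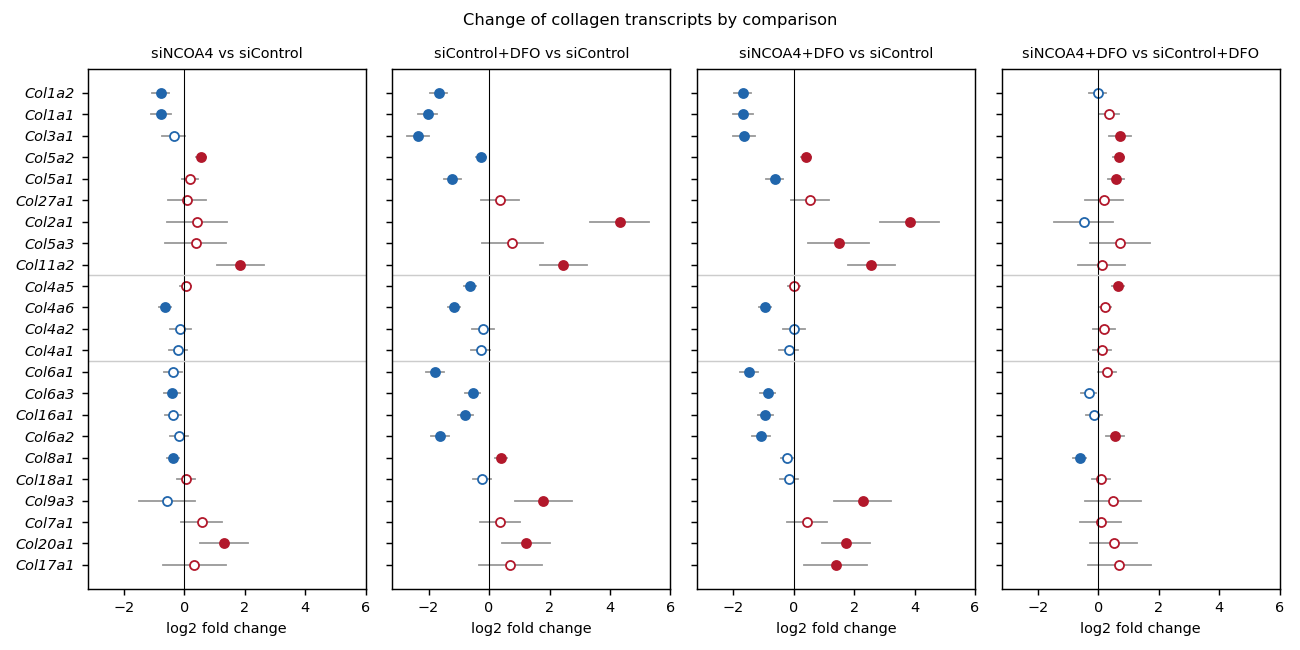
Log2 fold change of each collagen gene (points) with its 95% confidence interval (lines) in 4 comparisons, where filled points passed the adjusted p threshold, red is higher and blue is lower in the first group. In siControl+DFO against siControl, Col3a1 lies at -2.34 and Col2a1 at 4.32, and in siNCOA4+DFO against siControl+DFO no gene lies beyond a 2-fold change with an adjusted p below 0.05.

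Type I collagen, the main fiber-forming collagen of connective tissue, was the most abundant. Col1a2, which encodes its alpha 2 chain, stood at 1107, 984 and 915 FPKM in siControl, 659, 510.4 and 571 in siNCOA4, 268, 335 and 350.3 in siControl+DFO and 281, 319.6 and 333 in siNCOA4+DFO. The siControl libraries were the highest, siNCOA4 came next without overlap, and the DFO groups overlapped each other at the bottom. By mean FPKM, Col1a2 ranked 70 of all genes in siControl, 111 in siNCOA4, 217 in siControl+DFO and 194 in siNCOA4+DFO. Its mean was 1.73-fold lower with siNCOA4 (log2 change -0.79 ± 0.13, SE, adjusted p = 0.00237) and 3.15-fold lower with DFO (-1.66 ± 0.13, adjusted p = 6.24e-07). Knockdown on top of DFO made no detectable difference, -0.02 ± 0.13 on the log2 scale with a 95% interval of -0.31 to 0.26 (adjusted p = 0.924).

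Col1a1, the alpha 1 chain of type I, stood at 439, 374 and 337 FPKM in siControl, 254, 198 and 215 in siNCOA4, 73.4, 102 and 107 in siControl+DFO and 108, 118 and 132 in siNCOA4+DFO. Here too the siControl and siNCOA4 libraries formed separate ranges above the DFO libraries, and each siNCOA4+DFO library lay above each siControl+DFO library, by as little as 108 against 107. Col1a1 fell 1.72-fold with siNCOA4 (log2 change -0.78 ± 0.15, adjusted p = 0.00608) and 4.07-fold with DFO (-2.03 ± 0.15, adjusted p = 4.08e-07). With siNCOA4+DFO it was 3.21-fold below siControl (-1.68 ± 0.15, adjusted p = 2.76e-06).

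Col3a1 encodes the chain of type III collagen, which accompanies type I in elastic tissues. It stood at 297, 286 and 283 FPKM in siControl, 245, 203 and 228 in siNCOA4, 49.2, 58.2 and 63.8 in siControl+DFO and 71, 89.2 and 127 in siNCOA4+DFO. The siControl libraries were close together and above all others, and the 3 siNCOA4+DFO libraries were widely spread but all above siControl+DFO. Col3a1 fell 5.06-fold with DFO (log2 change -2.34 ± 0.17, adjusted p = 3.36e-07), the largest fall among the collagen genes in that comparison, and its rank by mean FPKM moved from 227 to 1358. With siNCOA4 alone the log2 change was -0.36 ± 0.17 and missed the threshold (adjusted p = 0.2). With siNCOA4+DFO it rose relative to siControl+DFO (0.71 ± 0.17, adjusted p = 0.0145), a call lost without siControl+DFO replicate 1 (adjusted p = 0.058) or when these groups were fitted alone. Of the Col3a1 transcript, 1.22% of 75-base windows also occur in the predicted gene Gm47302, and how the fragments of such windows were assigned was not tested.

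Type V collagen, a minor partner that helps start and limit type I fibers, differed by chain. Col5a1 stood at 82.3, 71.6 and 67.5 FPKM in siControl, 97.7, 72.6 and 82.8 in siNCOA4, 26.7, 36.4 and 32.7 in siControl+DFO and 46.1, 47.8 and 48.5 in siNCOA4+DFO. The siControl and siNCOA4 ranges overlapped, siNCOA4+DFO lay below both, and siControl+DFO was the lowest. It fell 2.31-fold with DFO (log2 change -1.21 ± 0.13, adjusted p = 7.14e-06) and rose with siNCOA4+DFO relative to siControl+DFO (0.58 ± 0.13, adjusted p = 0.00942), while siNCOA4 alone gave 0.19 (adjusted p = 0.383). Col5a2, which lies 24615 bases from the end of Col3a1 on chromosome 1, was instead higher with knockdown in both states. Its mean rose from 58.7 ± 4.67 FPKM in siControl to 86.4 ± 2.4 in siNCOA4 (SD, n = 3, log2 change 0.56 ± 0.08, adjusted p = 0.00074), and from 48.8 ± 3.3 in siControl+DFO to 77.4 ± 3.7 in siNCOA4+DFO (0.67 ± 0.08, adjusted p = 0.000367). DFO alone lowered Col5a2 by 1.2-fold (-0.27 ± 0.08, adjusted p = 0.0119), a call lost without siControl+DFO replicate 1 (adjusted p = 0.0529).

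Col2a1 and Col11a2 were near the detection limit in siControl and rose with DFO. Col2a1, which encodes the main collagen of cartilage, stood at 0.0683, 0 and 0.0583 FPKM in siControl, 0.157, 0 and 0.145 in siNCOA4, 2.7, 3.28 and 2.15 in siControl+DFO and 2.4, 1.99 and 1.4 in siNCOA4+DFO. The 6 libraries with DFO lay well above the 6 without, and the latter overlapped each other at or near 0. If the smallest step between values is taken as 1 fragment (within 0.15 of a whole number), Col2a1 rested on 0 to 1 fragments per library in siControl and 37 to 60 in siControl+DFO. Per unit of depth the ratio of fragments was 68.4 (95% exact interval 18.6 to 570.1), an interval that covers counting error only. The log2 change of 4.32 ± 0.45 (adjusted p = 6.83e-06) depends on the pseudocount and was 1.82 with a pseudocount of 1. In siNCOA4+DFO the log2 change was 3.84 ± 0.45 (adjusted p = 2.22e-05) from siControl and 3.43 ± 0.45 (adjusted p = 7.53e-05) from siNCOA4.

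Col11a2, a type XI chain of cartilage fibers, stood at 0.0599, 0.143 and 0.0511 FPKM in siControl, 0.687, 0.569 and 0.424 in siNCOA4, 1.07, 0.767 and 0.864 in siControl+DFO and 1.02, 0.995 and 0.902 in siNCOA4+DFO. All siControl libraries were below all others, siNCOA4 was intermediate without overlap, and the DFO groups overlapped. It rose with siNCOA4 (log2 change 1.85 ± 0.36, adjusted p = 0.00639), with DFO (2.46 ± 0.36, adjusted p = 0.000106) and with both (2.57 ± 0.36, adjusted p = 8.69e-05). The ratios of fragments to siControl, which held 5 fragments over its 3 libraries, were 6.37 (95% exact interval 2.5 to 20.8), 10.2 (95% exact interval 4.11 to 32.8) and 11.2 (95% exact interval 4.52 to 36) in that order. The siNCOA4 call was lost under quantile normalization.

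Col5a3, a type V chain, stood at 0.495, 0.175 and 0.376 FPKM in siControl, 0.842, 0.218 and 0.467 in siNCOA4, 0.57, 0.661 and 0.654 in siControl+DFO and 1.49, 1.14 and 0.77 in siNCOA4+DFO, with siNCOA4 overlapping each of the other groups. It passed the test only in siNCOA4+DFO against siControl (log2 change 1.49 ± 0.46, adjusted p = 0.0177), and not without siControl replicate 2 or siNCOA4+DFO replicate 1 (highest adjusted p = 0.0737) or under quantile normalization (adjusted p = 0.0949). Col27a1, a chain of developing cartilage, stayed between 0.873 and 2.07 FPKM, and its log2 change was 0.35 ± 0.29 with DFO (adjusted p = 0.328).

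Among basement membrane collagens the X-linked pair changed, and no change passed the test for the common chains. Col4a1 and Col4a2, which encode the chains of the widespread type IV network and start 21 bases apart on chromosome 8, passed the test in none of the comparisons. Col4a2 stood at 34, 29.1 and 25.5 FPKM in siControl, 31.8, 23.6 and 25.5 in siNCOA4, 21.1, 29.1 and 27.4 in siControl+DFO and 29.6, 34.8 and 24.5 in siNCOA4+DFO, and the 4 groups overlapped. Col4a1 ranged from 17.7 to 28.8 FPKM over the 12 libraries. With DFO the log2 change was -0.28 ± 0.14 for Col4a1 (95% interval -0.59 to 0.03) and -0.20 ± 0.17 for Col4a2 (-0.55 to 0.16).

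Col4a5, a chain of the type IV network of kidney and other specialized basement membranes, stood at 90.1, 78.1 and 80.2 FPKM in siControl, 89.9, 77.1 and 87.7 in siNCOA4, 48.5, 54.4 and 57 in siControl+DFO and 79.8, 82.5 and 89.3 in siNCOA4+DFO. The siControl+DFO libraries lay below the other 9, whose ranges overlapped. It fell 1.55-fold with DFO (log2 change -0.63 ± 0.09, adjusted p = 7.80e-05), whereas siNCOA4+DFO differed from siControl by 0.02 ± 0.09 (adjusted p = 0.873) and rose relative to siControl+DFO (0.65 ± 0.09, adjusted p = 0.000885). Col4a6, its head-to-head neighbor and partner chain, stood at 49.6, 46.7 and 49.1 FPKM in siControl, 32.9, 30.4 and 29.9 in siNCOA4, 19.1, 22.4 and 23.3 in siControl+DFO and 22.3, 25.4 and 27.4 in siNCOA4+DFO. Here the siControl libraries were the highest, siNCOA4 came next without overlap, and the DFO groups overlapped at the bottom. Col4a6 fell with siNCOA4 (-0.64 ± 0.10, adjusted p = 0.00123), where Col4a5 gave 0.04 (adjusted p = 0.854), and 2.24-fold with DFO (-1.17 ± 0.10, adjusted p = 9.20e-07). Its fall with DFO in siNCOA4 cells (-0.31 ± 0.10, adjusted p = 0.0192) was lost without siNCOA4 replicate 1 or siNCOA4+DFO replicate 1 (highest adjusted p = 0.0839).

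Among other types, type VI collagen, which forms beaded filaments around cells, was the most abundant. Col6a1 stood at 97.4, 88.4 and 85.4 FPKM in siControl, 78.8, 63.2 and 67.4 in siNCOA4, 20.7, 27.5 and 31.7 in siControl+DFO and 30.0, 32.7 and 33.9 in siNCOA4+DFO. Both DFO groups lay below both groups without DFO, and siControl lay above siNCOA4 without overlap. It fell 3.39-fold with DFO (log2 change -1.78 ± 0.14, adjusted p = 5.60e-07) and 2.81-fold with siNCOA4+DFO relative to siControl (-1.49 ± 0.14, adjusted p = 3.38e-06), while siNCOA4 alone gave -0.38 (adjusted p = 0.1).

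Col6a2, which follows Col6a1 on chromosome 10, stood at 51.6, 46.6 and 46 FPKM in siControl, 48.7, 39.5 and 38.7 in siNCOA4, 12.8, 15.3 and 18.7 in siControl+DFO and 20.6, 21.6 and 25.3 in siNCOA4+DFO. The groups without DFO overlapped, and siControl+DFO was below siNCOA4+DFO without overlap. Col6a2 fell 3.08-fold with DFO (log2 change -1.63 ± 0.14, adjusted p = 1.14e-06). It rose with knockdown on top of DFO (0.54 ± 0.14, adjusted p = 0.0195), a call lost without siControl+DFO replicate 1 or 2, without siNCOA4+DFO replicate 3 (highest adjusted p = 0.0742), or when these groups were fitted alone. Col6a3, the longest type VI chain, stood at 57.8, 50.1 and 50.8 FPKM in siControl, 46.4, 35.6 and 37.6 in siNCOA4, 31.6, 37.3 and 39.9 in siControl+DFO and 27, 28.5 and 31.2 in siNCOA4+DFO, with siControl above the rest and siNCOA4+DFO below the rest. Its fall with DFO was smaller than 2-fold (-0.55 ± 0.12, adjusted p = 0.0017), and that with siNCOA4 (-0.41 ± 0.12, adjusted p = 0.0382) was lost without any 1 of 7 libraries, namely each siControl library, siNCOA4 replicates 2 and 3, siControl+DFO replicate 2 and siNCOA4+DFO replicate 2 (highest adjusted p = 0.146), and under 5 of the other settings tried.

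Col16a1, a collagen found on the surface of fibers, stood at 48.4, 45.6 and 42.7 FPKM in siControl, 38.8, 31 and 35.5 in siNCOA4, 22.3, 28.7 and 28.7 in siControl+DFO and 21.6, 23.5 and 26.3 in siNCOA4+DFO. The siControl libraries were the highest, siNCOA4 followed without overlap, and the DFO groups overlapped at the bottom. It fell 1.71-fold with DFO (log2 change -0.78 ± 0.12, adjusted p = 0.000149) and 1.91-fold with both treatments (-0.94 ± 0.12, adjusted p = 4.28e-05). Col8a1, a short-chain collagen of vessel walls and the cornea, rose with DFO and fell with knockdown, with means of 13.4 ± 0.248, 10.3 ± 0.307, 17.7 ± 1.18 and 11.5 ± 1.22 FPKM (SD, n = 3) in siControl, siNCOA4, siControl+DFO and siNCOA4+DFO. Its log2 change was 0.40 ± 0.10 (adjusted p = 0.00418) with DFO and -0.62 ± 0.10 (adjusted p = 0.00157) for siNCOA4+DFO against siControl+DFO, and the change with siNCOA4 alone (-0.38 ± 0.10, adjusted p = 0.0263) was lost without any 1 of the 6 libraries compared (highest adjusted p = 0.0897).

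Of the low genes among other types, Col9a3, Col20a1 and Col17a1 were kept by the filter through their higher libraries, and Col7a1 was above 0.5 FPKM in all. Col9a3, a chain of the cartilage collagen IX, stood at 0.484, 0.771 and 1.03 FPKM in siControl, 0.463, 0.288 and 0.687 in siNCOA4, 4.11, 3.88 and 1.34 in siControl+DFO and 4.14, 3.22 and 4.57 in siNCOA4+DFO. All 6 libraries with DFO exceeded the 6 without, although siControl+DFO replicate 3 was far below its group. It rose with DFO (log2 change 1.79 ± 0.43, adjusted p = 0.00373), with siNCOA4+DFO relative to siControl (2.28 ± 0.43, adjusted p = 0.000813) and relative to siNCOA4 (2.86 ± 0.43, adjusted p = 0.0002).

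Col20a1, a fiber-associated collagen, stood at 0.566, 0.193 and 0.276 FPKM in siControl, 0.989, 1.02 and 0.802 in siNCOA4, 0.686, 1.04 and 0.961 in siControl+DFO and 1.38, 1.61 and 0.957 in siNCOA4+DFO, with all siControl libraries below the others. It rose with siNCOA4+DFO (log2 change 1.73 ± 0.36, adjusted p = 0.00181). Its rise with DFO (1.23 ± 0.36, adjusted p = 0.0129) was lost without siControl replicate 2 (adjusted p = 0.0535), and that with siNCOA4 (1.30 ± 0.36, adjusted p = 0.0378) without any 1 of siControl replicates 2 and 3, the siNCOA4 libraries and siControl+DFO replicates 2 and 3 (highest adjusted p = 0.12) and under 5 of the other settings tried (highest adjusted p = 0.101). Col17a1, a membrane-spanning collagen of epithelial attachment, stood at 0.186, 0.193 and 0.317 FPKM in siControl, 0.324, 0.49 and 0.175 in siNCOA4, 0.8, 0.439 and 0.21 in siControl+DFO and 0.835, 0.655 and 0.799 in siNCOA4+DFO, and the siNCOA4+DFO libraries lay above siControl and siNCOA4. It rose in siNCOA4+DFO (1.39 ± 0.48, adjusted p = 0.0293), a call lost under quantile normalization and without any 1 of siControl replicates 1 and 2 and siNCOA4+DFO replicates 1 and 3 (highest adjusted p = 0.0764). Col18a1, the source of endostatin, and Col7a1, the anchoring fibril collagen of skin, ranged from 4.91 to 7.5 and from 0.524 to 1.38 FPKM.

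The effect of NCOA4 knockdown was compared between cells with and without DFO. Against siControl+DFO, siNCOA4+DFO had 5 collagen genes that rose (Col3a1, Col5a1, Col5a2, Col4a5 and Col6a2) and 1 that fell (Col8a1), beside 6.22% and 10.2% of all genes, with a median log2 change of 0.21 for the 23 genes and -0.0062 for all. By limma 0 of the 23 passed with a fold change above 2, and 0 did at an unadjusted p below 0.05, where 2.09% of all genes did. The 5 that rose had fallen in siControl+DFO against siControl, and Col8a1 had risen. Both comparisons use the siControl+DFO libraries, so a low or high value there moves them in opposite directions. Such a value also enters the difference between the knockdown effects. Against siNCOA4, siNCOA4+DFO had 2 that rose and 9 that fell (background 23.1% and 19.6%), 4 of them by more than 2-fold (background 11.4%), with medians of -0.14 and -0.0035. The 2 that rose, Col2a1 and Col9a3, were kept by the filter through their higher libraries. They also stand among the 4, so no support is drawn from these counts of rises and 2-fold changes.

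The difference between the knockdown effect with DFO and that without was positive and passed the test for 4 genes and negative for 0 (1 at an unadjusted p below 0.05, Col11a2), by limma, where 0.671% and 1.43% of all genes passed in these directions. The median of this difference on the log2 scale was 0.33 for the 23 genes and -0.0062 for all. It was 0.85 ± 0.13 (adjusted p = 0.0105) for Col4a6, which fell with knockdown alone and differed by 0.21 ± 0.10 (adjusted p = 0.145) with knockdown in DFO. For Col1a1 it was 1.14 ± 0.21 (adjusted p = 0.0198), for Col4a5 0.62 ± 0.13 (adjusted p = 0.0308) and for Col3a1 1.07 ± 0.24 (adjusted p = 0.042). Of these calls, that for Col4a6 held without each library in turn, that for Col1a1 was lost without siNCOA4 replicate 2 or 3, that for Col4a5 without any 1 of 8 libraries and that for Col3a1 without any 1 of 10. The highest adjusted p without a library was 0.0582 for Col1a1, 0.0773 for Col4a5 and 0.103 for Col3a1. The libraries whose absence kept the call were siControl replicate 2, siNCOA4 replicate 1, siControl+DFO replicate 3 and siNCOA4+DFO replicate 1 for Col4a5, and siNCOA4+DFO replicates 1 and 3 for Col3a1. Moderation without a mean-variance trend also ended the calls of Col1a1 (adjusted p = 0.0505), Col4a5 (adjusted p = 0.0656) and Col3a1 (adjusted p = 0.085), and that of Col3a1 was further lost with no filter and with quantile normalization. For Col1a2 the difference was 0.77 ± 0.18 and missed the threshold (adjusted p = 0.0527).

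FPKM is corrected for length, and ratios between the chains of a trimer were compared between groups. The level of a ratio was not read as the proportion of chains in the trimer. The ratio of Col1a1 to Col1a2 FPKM was 0.382 ± 0.0145, 0.383 ± 0.00603, 0.295 ± 0.018 and 0.383 ± 0.0141 (mean ± SD, n = 3) in siControl, siNCOA4, siControl+DFO and siNCOA4+DFO. It was thus lower in all 3 siControl+DFO libraries than in the other 9. Col4a5 to Col4a6 gave 1.71 ± 0.098, 2.73 ± 0.199, 2.47 ± 0.056 and 3.36 ± 0.189 in the same order, lowest in siControl and highest in siNCOA4+DFO, with siNCOA4 and siControl+DFO ranges meeting. The ratio of Col5a1 to Col5a2 was 1.26 ± 0.112, 0.98 ± 0.17, 0.653 ± 0.0748 and 0.614 ± 0.0172, lower in each DFO library than in the others. Col6a1 to Col6a2 gave 1.88 ± 0.0204, 1.65 ± 0.0758, 1.7 ± 0.093 and 1.44 ± 0.0895, and Col4a1 to Col4a2 0.839 ± 0.041, 0.793 ± 0.0357, 0.791 ± 0.0563 and 0.751 ± 0.0725, the latter with overlap among all groups. The ratios were not tested, and Col4a5 to Col4a6 was added to the pairs chosen at the outset.

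**Figure D4:**
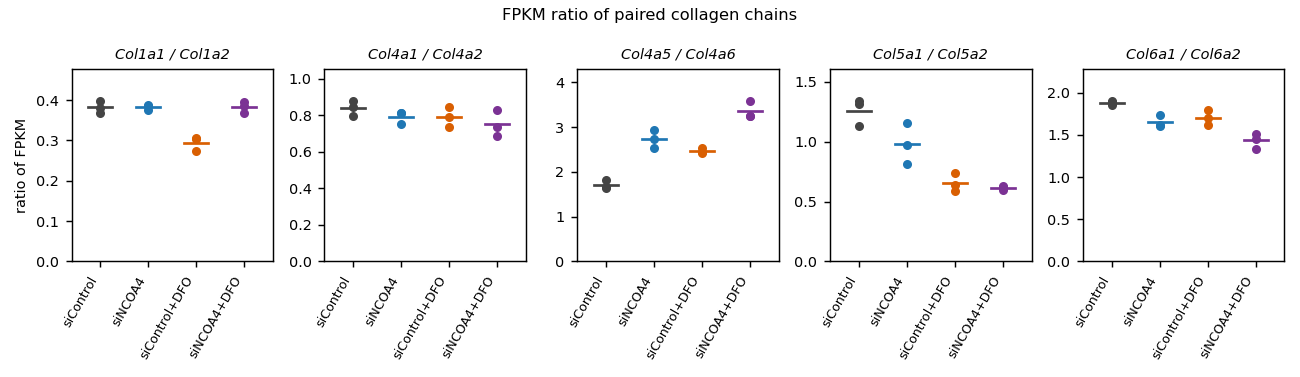
Ratio of FPKM between paired collagen chains in each library (points) with the group mean (bar), on axes that start at 0. Col1a1 over Col1a2 is 0.295 in siControl+DFO and 0.382 in siControl, and Col4a5 over Col4a6 runs from 1.71 in siControl to 3.36 in siNCOA4+DFO.

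The enzymes that hydroxylate collagen did not move together. Of 12 tested genes of collagen hydroxylation, 5 rose and 3 fell with DFO, with a median log2 change of -0.0064, where 27.7% and 25.7% of all genes rose and fell. Plod2, the lysyl hydroxylase that acts on telopeptides, rose from 15.4 ± 2.03 to 107 ± 9.27 FPKM (SD, n = 3, log2 change 2.79 ± 0.11, adjusted p = 3.04e-09), and also with siNCOA4 alone (0.65 ± 0.11, adjusted p = 0.00253). The prolyl 4-hydroxylase chains P4ha2 and P4ha1 rose by 1.57 ± 0.13 and 0.95 ± 0.08 (adjusted p = 1.13e-06 and 1.38e-06). By contrast P4ha3, another prolyl 4-hydroxylase chain, and P3h4, a partner of lysyl hydroxylation, fell by 1.87 and 1.54 on the log2 scale (adjusted p = 4.32e-05 and 3.64e-07). With siNCOA4 alone 1 gene rose and 2 fell, beside 4.52% and 7.21% of all genes.

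Of 12 tested genes of folding, glycosylation and export, 2 rose and 7 fell with DFO, beside 27.7% and 25.7% of all genes. The median log2 change of the 12 was -0.52. Serpinh1, the collagen chaperone HSP47, went from 356 ± 7.5 to 178 ± 14.8 FPKM (adjusted p = 6.51e-07), and Fkbp7, a prolyl isomerase of the endoplasmic reticulum, gave -1.23 ± 0.35 (adjusted p = 0.0102). Creb3l1, a transcription factor known to drive collagen genes in bone, rose instead, by 0.78 (adjusted p = 0.0228) with DFO, 0.94 (adjusted p = 0.0357) with siNCOA4 and 1.02 (adjusted p = 0.00588) with both treatments. Of 4 tested genes of propeptide cleavage 3 fell and 0 rose with DFO by limma, the same at an unadjusted p below 0.05. Over all genes tested 25.7% fell and 27.7% rose. Adamts2, which trims the N-terminal propeptide, fell by 1.72 (adjusted p = 5.97e-07) and Pcolce, which enhances C-terminal cleavage, by 1.48 (adjusted p = 3.17e-08). Bmp1, the C-terminal protease itself, gave -0.45 (adjusted p = 0.00467).

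Cross-linking enzymes parted as well. Lox, the founding lysyl oxidase, had means of 378 ± 27.5, 241 ± 13, 146 ± 20.3 and 144 ± 40.7 FPKM (SD, n = 3) in siControl, siNCOA4, siControl+DFO and siNCOA4+DFO, and fell both with siNCOA4 (log2 change -0.64 ± 0.16, adjusted p = 0.0222) and with DFO (-1.38 ± 0.16, adjusted p = 1.55e-05). Loxl1 fell with DFO (-1.52 ± 0.14, adjusted p = 3.27e-06) and Loxl4 rose (1.14 ± 0.12, adjusted p = 7.36e-06). In all, 1 of 4 tested rose and 3 fell with DFO, beside 27.7% and 25.7% of all genes. Among 5 tested collagen receptors 3 rose and 1 fell with DFO, beside the same shares. The discoidin domain receptors Ddr1 and Ddr2 gave 1.29 (adjusted p = 1.40e-05) and 0.56 (adjusted p = 0.000115), and Mrc2, which takes up collagen for degradation, -0.86 (adjusted p = 0.00015).

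Among basement membrane partners, 1 of 9 tested rose and 3 fell with DFO, beside 27.7% and 25.7% of all genes. Pxdn, which cross-links type IV collagen, fell with siNCOA4 (-1.22 ± 0.13, adjusted p = 0.000151), with DFO (-1.05 ± 0.13, adjusted p = 3.77e-05) and with both (-1.62 ± 0.13, adjusted p = 1.44e-06). Sparc, a collagen-binding protein, gave -0.94 (adjusted p = 4.11e-06) with DFO. Agrn, a heparan sulfate proteoglycan of basement membranes, gave 0.54 (adjusted p = 0.00551) with both treatments. Of 9 tested fibril-associated matrix genes, 1 rose and 5 fell with DFO, beside the same shares of all genes. The small proteoglycans Dcn and Bgn, which bind fibrils, fell by 2.16 and 1.16 (adjusted p = 0.000494 and 8.32e-07), and the matricellular genes Postn and Thbs1 by 1.78 and 1.57 (adjusted p = 0.000766 and 1.46e-05). Ctgf, a matricellular growth factor gene, fell with siNCOA4 (-1.01 ± 0.12, adjusted p = 0.000256) and gave 0.04 (adjusted p = 0.824) with DFO.

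With siNCOA4 alone, where 4.52% and 7.21% of all genes rose and fell, fewer of these genes passed. Of folding and export genes 1 rose and 2 fell, of fibril-associated genes 1 and 2, of lysyl oxidases 1 fell, and of basement membrane partners 1 fell and by limma 0 rose, also at an unadjusted p below 0.05. For propeptide cleavage and receptors 0 passed by limma in either direction, with 0 and 3 at an unadjusted p below 0.05. In siNCOA4+DFO against siControl, where 25.4% and 23.4% of all genes rose and fell, 4 hydroxylation genes rose and 4 fell, 2 and 5 did for folding and export, and 1 and 4 for fibril-associated genes. In the same comparison 2 propeptide cleavage genes fell, 1 lysyl oxidase rose and 2 fell, 2 receptors rose and 1 fell, and 2 basement membrane partners rose and 2 fell. Against siControl+DFO, siNCOA4+DFO had 2 propeptide cleavage genes and 1 hydroxylation gene that rose, and 2 receptors and 1 lysyl oxidase that fell, where 6.22% and 10.2% of all genes did. Of basement membrane partners 1 rose and 1 fell there, and of fibril-associated genes 2 rose and 1 fell.

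**Figure D5:**
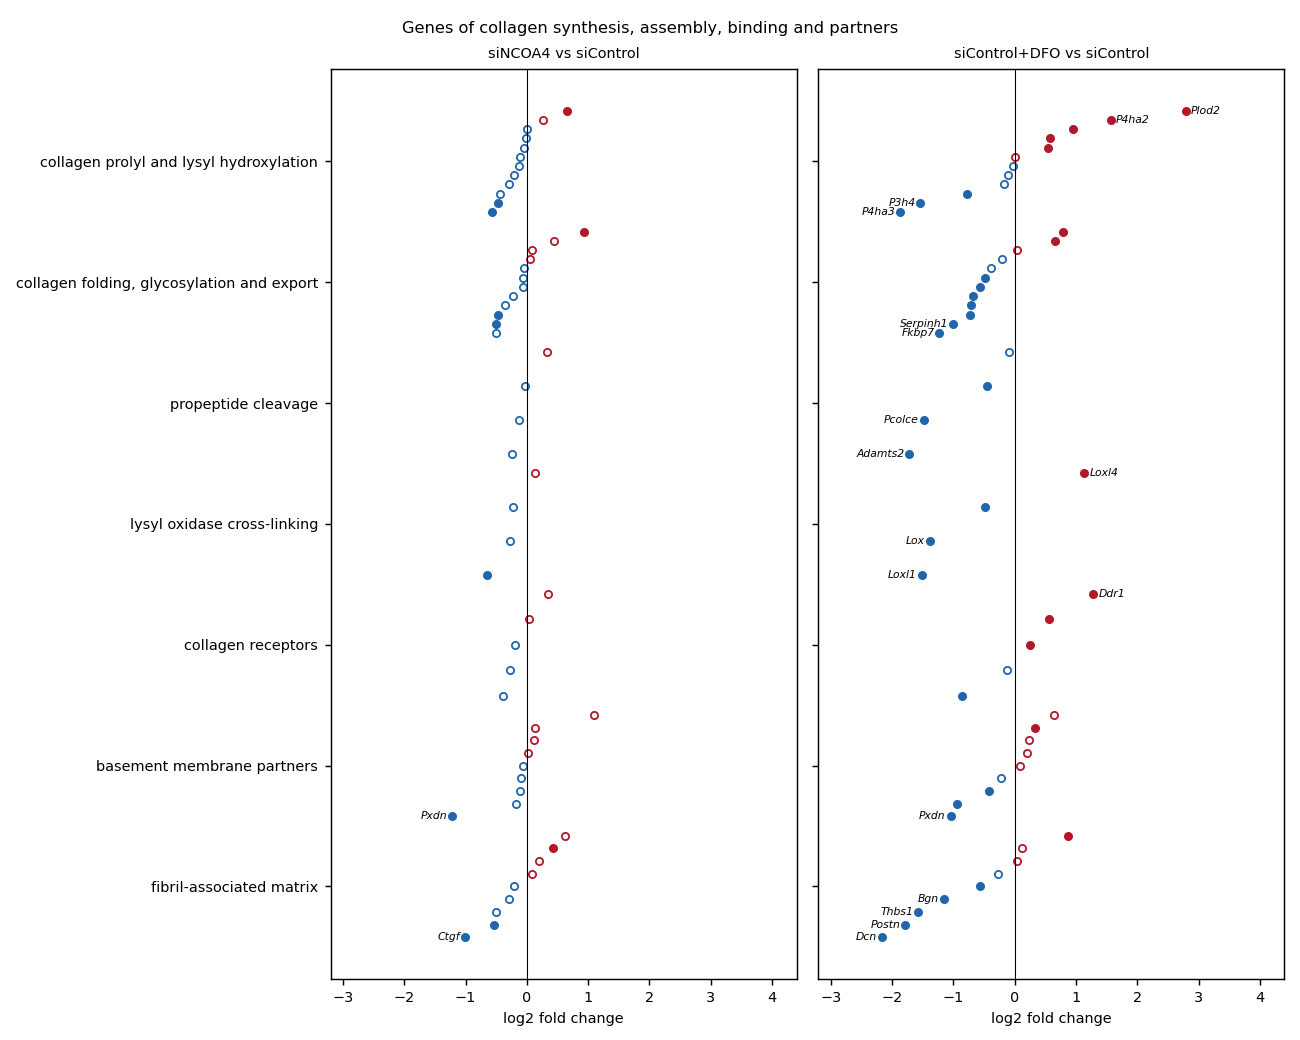
Log2 fold change of the tested genes in 7 lists of collagen-related genes for siNCOA4 and for siControl+DFO, each against siControl, where filled points passed the adjusted p threshold and names mark those that also passed a 2-fold change. With DFO, Plod2 lies at 2.79 and Dcn at -2.16, and with siNCOA4 the named genes are Pxdn and Ctgf.

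Of the 44 collagen genes, 21 did not reach 0.5 FPKM in 3 libraries and were not tested. The highest single values among them were 0.554 FPKM for Col9a1, 0.544 for Col28a1 and 0.516 for Col12a1, and Col26a1 was listed at 0 in every library. They included the fibrillar Col11a1 and Col24a1 and the basement membrane genes Col4a3 and Col4a4, whose starts lie 72 bases apart. At this depth Col12a1, a fiber-surface collagen, rested on 1 to 2 fragments per library in siControl and 15 to 19 in siControl+DFO.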

How the data were processed

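HT22 cells in 4 groups of 3 biological replicates were profiled by stranded total RNA-seq. The authors deposited 1 table of FPKM per library. The submitters' processing notes name Trimmomatic 0.33, FastQC, HISAT2 2.1.0, featureCounts, edgeR and build mm10, and the program that made the FPKM is not given in the sources used here. Of 24347 entries, 4 that shared a name were dropped. In R 4.3.3 with limma 3.58.1, log2(FPKM + 0.1) of 11924 genes at 0.5 FPKM or more in at least 3 libraries was fitted to group means with a mean-variance trend over all 12 libraries, with Benjamini-Hochberg adjustment in each comparison and a threshold of 0.05. limma replaced the study's edgeR, since FPKM are not counts. Scripts were tested on simulated data.

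The collagen genes and all lists were chosen with earlier results of these data known. Collagens were given in every library where they passed with a fold change above 2, were in the top 3 of their type by mean FPKM or differed in the effect of siNCOA4 with and without DFO. Pathway list genes were named where they passed with a fold change above 2, filled to 3 by adjusted p, and 1 of these is not reported here. Relative depth was read from FPKM steps, and counts were not recovered for testing. Intervals on fragments cover counting error only. Alternatives were pseudocounts of 1 and 0.01, other filters, median-of-ratios and quantile scaling, a replicate block, compared groups alone, no trend and leaving out each library.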

Additional observations from a re-analysis of the deposited data

Results flagged for a closer look

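For 4 collagen genes, the log2 effect of siNCOA4 in DFO-treated cells minus that in untreated cells differed from 0 in limma with Benjamini-Hochberg adjustment over all genes tested (n = 3 per group). The difference was 1.14 for Col1a1 (adjusted p = 0.0198), 1.07 for Col3a1 (adjusted p = 0.042), 0.62 for Col4a5 (adjusted p = 0.0308) and 0.85 for Col4a6 (adjusted p = 0.0105). Of these 4 calls, that for Col4a6 held under each alternative in which it was tested and without each library, while those for Col1a1, Col4a5 and Col3a1 were lost without a mean-variance trend and without 2, 8 and 10 of the libraries in turn. Among the related genes it was 0.83 for Adamts2 (adjusted p = 0.0432) and 1.67 for Pdgfrb (adjusted p = 0.0125). Each group held 3 libraries, so no single library was compared with its own group for distance.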

How the results depend on the processing

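Of 61 calls on collagen genes over the 6 comparisons, 47 held under each alternative in which they were tested and without each library, 10 were lost under some alternative and 13 without some library, and 0 changed sign. Col5a3, Col11a2, Col20a1 and Col17a1 dropped out under the filter of 2 FPKM, so their calls were tested under 8 alternatives rather than 9. The difference between the siNCOA4 effects was not fitted with the compared groups alone. With siNCOA4 against siControl, 8 genes passed, and 5 did after quantile normalization. By a fold change above 2 in that comparison, 2 passed, against 0 with a pseudocount of 1, 0 with a filter of 2 FPKM, 0 after quantile normalization, 1 with no filter and 1 with the compared groups fitted alone. For siNCOA4+DFO against siControl, 11 passed with a fold change above 2, and 7 did with a pseudocount of 1 or a filter of 2 FPKM. For siNCOA4+DFO against siNCOA4, 4 did, and 7 with no filter. For the difference between the siNCOA4 effects, 4 genes passed, and 2 without a trend, of which Col4a6 was the only one among the 4. Fewer genes were tested under the stricter filter, and the cause of the other moves was not tested. Leaving out each library in turn gave 5 to 10 passing genes for siNCOA4 (1 to 2 by fold), 15 to 16 for DFO (10 to 11), 14 to 16 for siNCOA4+DFO (9 to 12), 5 to 6 for siNCOA4+DFO against siControl+DFO (0 to 0), 10 to 11 against siNCOA4 (4 to 5) and 1 to 5 for the difference. Replicate numbers did not pair the libraries, with correlations of same-numbered deviations between -0.127 and 0.116. With a replicate block, 6, 16, 16, 6, 11 and 4 genes passed in the 6 comparisons, and 1, 11, 11, 0 and 4 by fold in the first 5, and the siNCOA4 calls of Col6a3 and Col20a1 were lost. Depth limits Col2a1, Col11a2 and the other genes near 0.5 FPKM, which rest on few fragments in siControl, and their log2 changes depend on the pseudocount.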
